A study of Saccharomyces cerevisiae with 64 samples.

Results

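The 7 transcripts described here encode the yeast messenger RNA methyltransferase complex that makes N6-methyladenosine (m6A) and its reader. They are the catalytic subunit gene IME4 (YGL192W), KAR4 (YCL055W), MUM2 (YBR057C), VIR1 (YGL036W), SLZ1 (YNL196C) and DYN2 (YDR424C), and the reader gene PHO92 (YDR374C). They were chosen by name, and all 7 were found among the 6660 genes of the deposited table. Polyadenylated RNA was sequenced from Saccharomyces cerevisiae S288c kept in sporulation conditions, in which starved diploid cells enter meiosis and form spores. The mutant carried kfc1 --, which the literature equates with VIR1, and was set against wild type. Each genotype had an arm with IME1 overexpressed (PzevIME1 in the labels), an arm with IME1 and RIM4 overexpressed (PzevIME1 PzevRIM4) and an arm with no overexpression. Cells with IME1 and RIM4 overexpressed were collected at 0, 12, 24 and 48 h, and cells of the other arms at 0, 2, 4, 6, 8 and 12 h. Ime1 is the master transcription factor of meiosis, and Rim4 an RNA-binding protein that meiosis requires. There were 64 samples in 32 conditions. The titles of 24 of them, wild type with IME1 or with no overexpression, mark them as re-used.

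The table held 1 value per gene and condition, in which both replicates were already combined, so no replicate spread, depth or test can be given for any value. Values are log2 ratios to wild type with no overexpression at 0 h, and differences between them are log2 differences. The table gives no expression level, so the 7 genes can be compared in how they changed and not in how much RNA they had. Since nothing could be tested, a gene counted as higher or lower (as called) by size: its difference, averaged over the hours compared, had to reach 1 log2 unit (2-fold) and keep 1 sign throughout. At a single time point the size alone decided. The share of all genes called by the same rule is given beside the first count of members in each comparison. In bulk RNA, fewer cells with a transcript and less of it per cell cannot be told apart.

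In yeast, m6A is laid down on messenger RNA during early meiosis by Ime4 with Kar4, a related protein of the same family, and the accessory proteins Mum2, Vir1, Slz1 and Dyn2. Mum2 and Vir1 are the counterparts of the metazoan subunits WTAP and VIRMA, and Dyn2 is a light chain shared with the dynein motor. Pho92, which carries a YTH domain, binds m6A-marked messages in meiosis. Kar4 also acts with the transcription factor Ste12 in mating haploids, where it turns on genes for nuclear fusion.

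The sequences upstream of PHO92, SLZ1, IME4 and VIR1 are printed first because these genes share the core of the URS1 element, the site of the Ume6 repressor through which Ime1 turns on early meiotic genes. KAR4 is printed with them as an example that lacks that core and holds the Ste12 element instead. MUM2, which is not printed, also lacks the core and holds that element, and VIR1 holds both. Each line runs 5′ to 3′ on the strand of the gene, over 200 bases that end 50 bases before the start codon. Capitals mark GGCGGC (URS1 core), CACAAA (core of the MSE, the site of the middle meiotic factor Ndt80) and TGAAACA (the Ste12 element) on either strand, so that the reverse complement is capitalised where the match is on the opposite strand.
PHO92: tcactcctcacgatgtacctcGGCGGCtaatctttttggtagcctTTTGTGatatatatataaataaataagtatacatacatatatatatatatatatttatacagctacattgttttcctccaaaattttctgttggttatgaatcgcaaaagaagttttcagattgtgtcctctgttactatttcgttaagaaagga
SLZ1: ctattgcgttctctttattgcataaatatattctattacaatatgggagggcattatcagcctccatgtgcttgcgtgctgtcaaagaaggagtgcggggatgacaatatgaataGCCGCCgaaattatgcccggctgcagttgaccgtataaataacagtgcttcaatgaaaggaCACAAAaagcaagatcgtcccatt
IME4: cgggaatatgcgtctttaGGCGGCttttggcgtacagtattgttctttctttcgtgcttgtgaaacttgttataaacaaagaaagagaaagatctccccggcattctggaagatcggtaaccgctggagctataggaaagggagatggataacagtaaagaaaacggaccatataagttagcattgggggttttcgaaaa
VIR1: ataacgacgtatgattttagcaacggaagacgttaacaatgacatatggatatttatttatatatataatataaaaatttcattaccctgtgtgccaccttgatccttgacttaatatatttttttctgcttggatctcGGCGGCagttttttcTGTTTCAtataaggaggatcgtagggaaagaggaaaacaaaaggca
KAR4: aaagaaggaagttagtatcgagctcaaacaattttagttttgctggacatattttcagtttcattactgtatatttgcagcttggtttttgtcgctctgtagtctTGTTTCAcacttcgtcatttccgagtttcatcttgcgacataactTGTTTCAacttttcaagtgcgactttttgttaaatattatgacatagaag
On R64, the assembly that sacCer3 also uses, these stretches are chrIV:1224445-1224644 on the minus strand (PHO92), chrXIV:271222-271421 on the minus strand (SLZ1), chrVII:141996-142195 on the plus strand (IME4), chrVII:428351-428550 on the plus strand (VIR1) and chrIII:27679-27878 on the plus strand (KAR4).

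Over the 250 bases before the start codon, the URS1 core was found in 4 of the 7 genes. It lay 229 bases upstream of PHO92, 135 of SLZ1, 232 of IME4 and 111 of VIR1, and 4.15% of the 6020 such windows of protein-coding genes in RefSeq held it. The MSE core was found upstream of PHO92, at 205 bases, and of SLZ1, at 74 bases, and 16.4% of windows held it. The Ste12 element was found at 145 and 100 bases upstream of KAR4, at 96 of VIR1 and at 132 of MUM2, and 6.05% of windows held it. None of these letters was found in the window of DYN2. No match of one motif overlapped another. A match describes letters in a window and is not evidence of binding. The 200 bases printed for IME4 lie inside YGL193C (chromosome VII from 141916 to 142227), an open reading frame on the opposite strand.

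**Figure D1:**
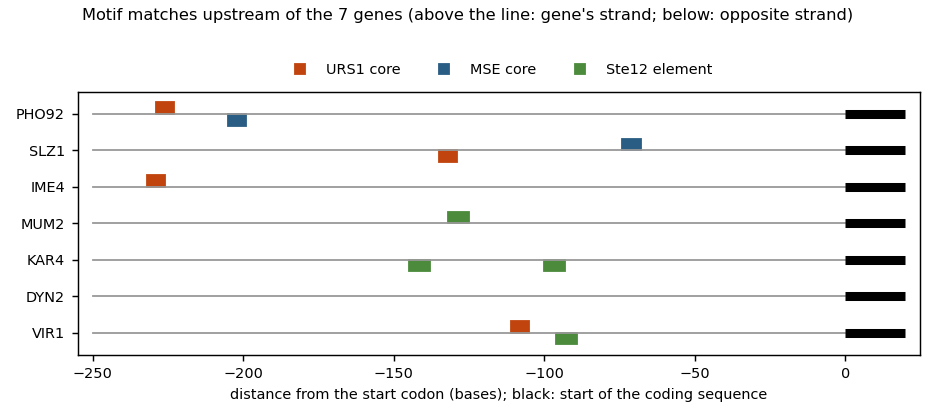
Motif matches in the 250 bases before the start codon of the 7 genes. The horizontal axis is the distance from the start codon in bases, boxes above a line are matches on the strand of the gene and boxes below it matches on the opposite strand. The URS1 core stands at -232 to -106 in PHO92, SLZ1, IME4 and VIR1, and KAR4 and MUM2 have Ste12 elements only.

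The coding sequences lie at chromosome VII from 142246 to 144048 (IME4), VII from 428601 to 431330 (VIR1), II from 352193 to 353293 (MUM2), XIV from 270275 to 271171 (SLZ1), III from 27929 to 28936 (KAR4) and IV from 1223474 to 1224394 (PHO92). Each of these has 1 coding exon. DYN2, at chromosome IV from 1319387 to 1319841, has 3. IME4 is overlapped along its whole length by the antisense transcript RME2, annotated from 141898 to 144120 on the opposite strand and known from haploid cells. Whether reads were counted by strand is not given in the sources used here, so IME4 values may include RME2.

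With no overexpression, the course over time asked which of these transcripts moved in starvation alone. PHO92 rose in both genotypes, SLZ1 rose in kfc1, and the other members were not called. PHO92 had ratios of -0.87, 4.16, 2.15, 2.65, 3.28 and 3.60 at 0 to 12 h in kfc1, against 0, 1.99, 2.35, 2.21, 3.11 and 3.18 in wild type. Its mean rise over 0 h was 4.03 (3.01 to 5.02) in kfc1 and 2.57 (1.99 to 3.18) in wild type, where ranges run over time points. The kfc1 value at 2 h was the highest of either course, and from 4 h both genotypes climbed slowly.

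SLZ1 encodes the leucine-zipper subunit that helps carry Ime4 into the nucleus. Its ratios were -1.05, -0.06, -0.27, 0.31, 1.27 and 1.20 in kfc1, against 0, 0.51, 0.89, 0.67, 1.24 and 1.43 in wild type. Its mean rise was 1.54 in kfc1 and 0.95 in wild type, where it missed the rule and would have met it without the 2 h (1.06) or the 6 h (1.02) group. IME4, MUM2 and KAR4 stayed within 0.5 of their start, with IME4 between -0.05 and 0.28 in kfc1 and between 0 and 0.11 in wild type. Over these hours 2 of 7 members were higher in kfc1, where 6.87% of genes were, and 1 of 7 in wild type, where 2.37% were.

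With IME1 overexpressed, PHO92 and SLZ1 reached far higher ratios, IME4, MUM2 and KAR4 climbed slowly between 2 and 12 h, and DYN2 did not climb. From 2 to 12 h PHO92 stood at 4.86, 5.31, 5.28, 5.24 and 5.88 in kfc1 and at 4.95, 5.36, 5.39, 5.37 and 6.19 in wild type. SLZ1 stood at 2.56, 3.62, 3.59, 3.66 and 4.24 in kfc1 and at 2.88, 3.81, 3.98, 3.84 and 4.83 in wild type. Both had most of their gain by 2 to 4 h and were highest at 12 h.

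IME4 took another course in this arm. Its ratios at 0 to 12 h were 0.22, 0.36, 0.86, 0.78, 1.14 and 1.53 in kfc1, against 0.90, 0.23, 0.77, 0.80, 0.99 and 1.57 in wild type. MUM2 was close to it, with -0.02, 0.08, 0.52, 0.70, 0.89 and 1.25 in kfc1 and 0.46, 0.15, 0.58, 0.72, 0.82 and 1.42 in wild type. Both genes were highest at 12 h in both genotypes. In wild type both were lower at 2 h than at 0 h, and IME4 was above its 0 h value again from 8 h, so that its mean difference from 0 h was -0.03 there and 0.72 in kfc1.

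Set against the arm with no overexpression at the same hours, IME1 raised SLZ1 by a mean of 3.05 (2.39 to 3.89) in kfc1 and 2.92 (2.36 to 3.40) in wild type. Over 2 to 12 h PHO92 was higher with IME1 by 2.15 (0.70 to 3.16) in kfc1 and 2.88 (2.26 to 3.17) in wild type. The low end in kfc1 is the 2 h group, where PHO92 was already high with no overexpression. IME4 had mean differences of 0.83 in kfc1 and 0.82 in wild type and MUM2 of 0.78 and 0.69 in the same order, all under the rule. Without the 2 h group, IME4 in kfc1 would have met it. KAR4 was called in kfc1 alone, with 1.34 (0.77 to 1.79) in kfc1 and 0.20 (-0.53 to 0.80) in wild type. In all, 3 of 7 members were called higher in kfc1, where 4.06% of genes were, and 2 of 7 in wild type, where 6.08% were. VIR1 was the 1 member lower in kfc1 (-2.26), where 2.84% of genes were. The early meiotic list of 23 recombination and synapsis genes was higher in 23 of 23 cases in kfc1 (median 2.68) and 22 of 23 in wild type (median 2.89), beside medians of all genes of 0.00 and 0.02 in that order. In this arm the course against its own 0 h gave PHO92 6.45 in kfc1 and 5.50 in wild type and SLZ1 3.58 and 2.30. KAR4 reached 1.02 in kfc1 there and missed the rule in wild type, at 0.77; its kfc1 call ended with columns centred on their mean (0.92) and without the 6 h (0.99), 8 h (0.97) or 12 h (0.89) group. That made 3 of 7 members higher in kfc1, where 9.69% of genes were, and 2 of 7 in wild type, where 24% were. VIR1 was the 1 member lower in kfc1 (-1.07), where 4.99% of genes were. The 0 h values behind this course differed between the genotypes, with SLZ1 at -0.04 in kfc1 and 1.56 in wild type. PHO92 stood at -1.14 and -0.05 in the same order.

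**Figure D2:**
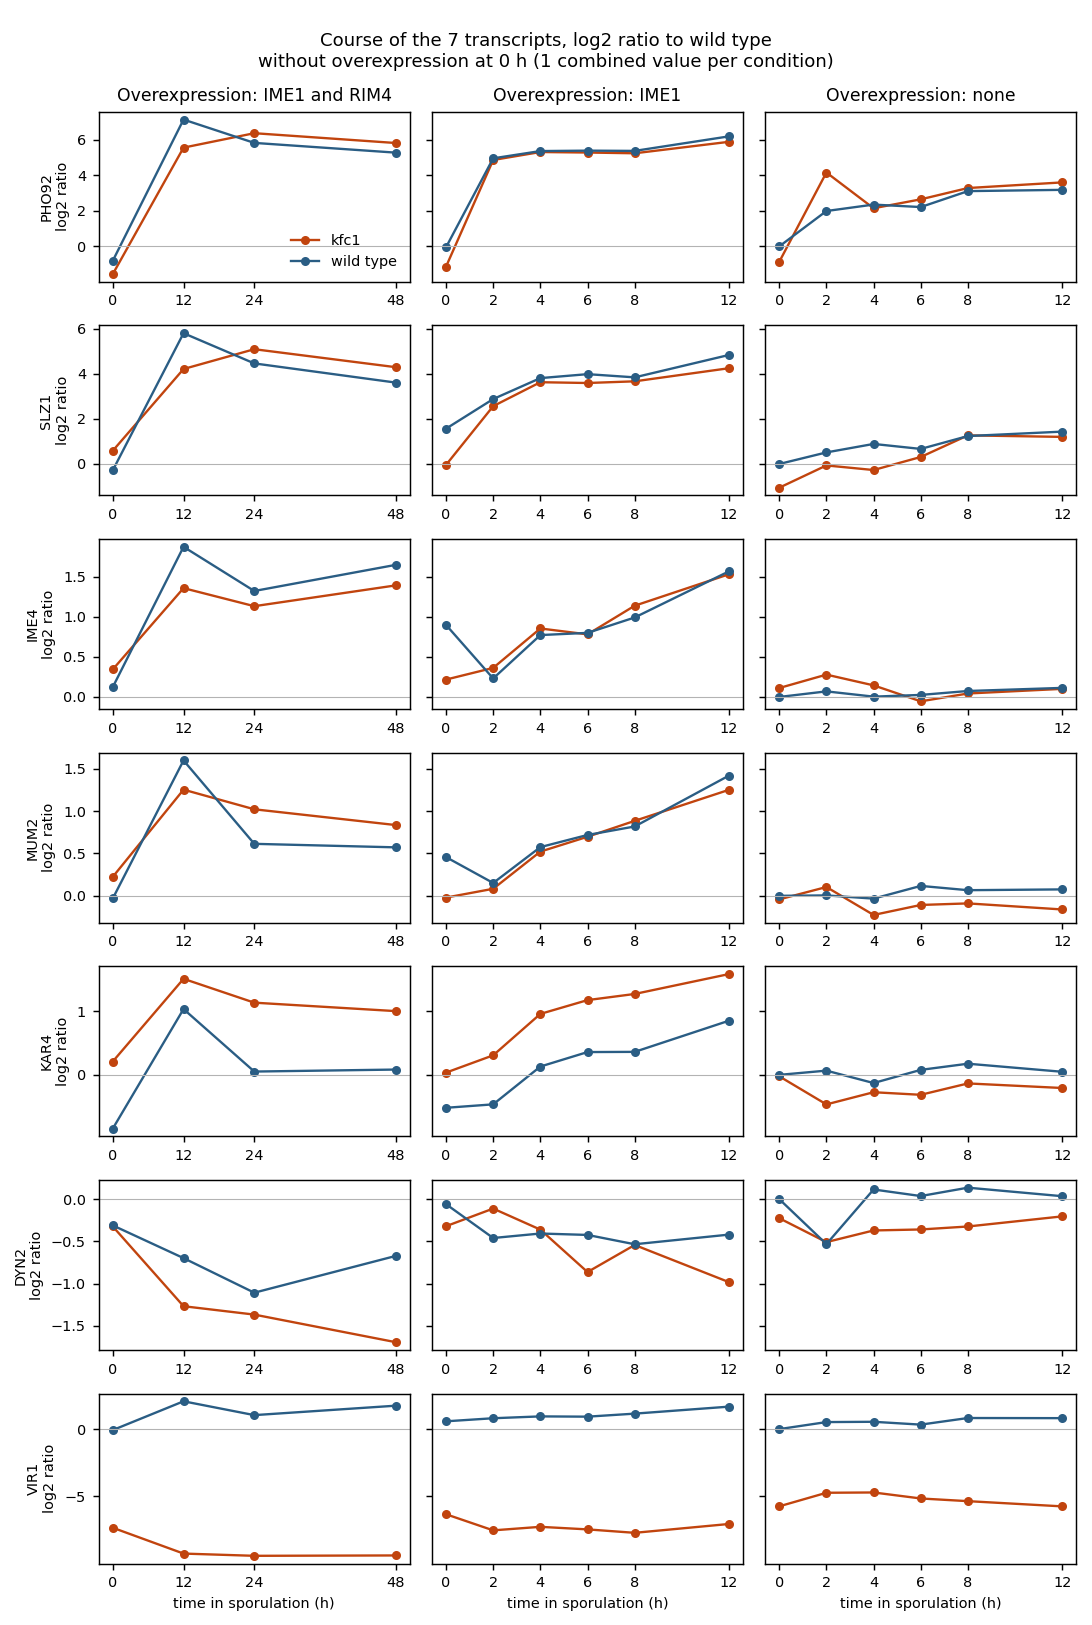
Log2 ratio to wild type with no overexpression at 0 h (vertical axis, own scale for each gene) against time in hours for the 7 transcripts, with 1 column of panels per arm. Each point is 1 condition with its replicates combined, so there are no error bars. PHO92 and SLZ1 climb steeply with IME1, IME4 and MUM2 climb slowly from 2 h, and KAR4 runs higher in kfc1 than in wild type in both overexpression arms.

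With IME1 and RIM4 the wild-type values of 6 of the 7 members were highest at 12 h, DYN2 being the exception, and the kfc1 values of PHO92 and SLZ1 were highest at 24 h. Of all 6505 genes, 1501 were highest at 24 h in kfc1 and 2045 at 12 h in wild type. PHO92 stood at -1.56, 5.56, 6.37 and 5.81 at 0, 12, 24 and 48 h in kfc1, against -0.81, 7.13, 5.82 and 5.27 in wild type. SLZ1 stood at 0.59, 4.21, 5.09 and 4.29 in kfc1, against -0.28, 5.80, 4.46 and 3.61 in wild type. At 12 h both were therefore lower in kfc1, by -1.58 for PHO92 and -1.59 for SLZ1. At 24 and 48 h both were above wild type without reaching the rule, by 0.55 and 0.54 for PHO92 and by 0.63 and 0.68 for SLZ1.

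Not counting VIR1, which the mutant lacks, PHO92 and SLZ1 were the members called lower in kfc1 at 12 h, when 11.1% of all genes were. Among the 23 early meiotic genes the median difference was -0.84 at that hour, with 4 of 23 genes lower, and 0.77 at 24 h, with 4 of 23 higher. At 24 h 4.07% of all genes were higher. In wild type the highest value fell at 12 h for 23 of 23 early genes, whereas in kfc1 it fell at 12 h for 17 and at 24 h for 5, beside 1554 of all 6505 genes at 12 h in kfc1. Between 12 and 24 h PHO92 fell by 1.31, SLZ1 by 1.34 and VIR1 by 1.03 in wild type, which made 3 of 7 members where 7.33% of genes fell. In kfc1 PHO92 had a difference of 0.81 and SLZ1 of 0.88 over the same interval, and 0 of 7 members were called, where 10.5% of genes were higher and 3.74% lower.

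The other subunits moved over a narrower range in this arm. IME4 stood at 0.34, 1.36, 1.13 and 1.39 at 0 to 48 h in kfc1, against 0.12, 1.88, 1.32 and 1.65 in wild type. MUM2, which is also needed for DNA replication before meiosis, stood at 0.22, 1.25, 1.02 and 0.84 in kfc1, against -0.03, 1.60, 0.61 and 0.57 in wild type. DYN2 stood at -0.32, -1.27, -1.37 and -1.69 in kfc1, against -0.31, -0.70, -1.11 and -0.67 in wild type. IME4 and MUM2 thus kept most of their 12 h value to 48 h in kfc1, MUM2 had lost more of it in wild type, and DYN2 went lower in kfc1 than in wild type at each hour after 0 h.

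Against 0 h of the same strain, 12 to 48 h with IME1 and RIM4 gave mean differences of 7.47 in kfc1 and 6.88 in wild type for PHO92 and of 3.94 and 4.90 for SLZ1. IME4 rose in wild type, by 1.49 (1.20 to 1.75), and had 0.95 (0.79 to 1.05) in kfc1, just under the rule. MUM2 was under it in both, with 0.81 in kfc1 and 0.96 in wild type. Without the 24 h group, IME4 in kfc1 and MUM2 in wild type would have met the rule. Without the 48 h group, MUM2 in wild type would also have met it. With the start taken at 0 h with no overexpression, IME4 and MUM2 in kfc1 would have met the rule. The counts of members called in each genotype thus depend on the start chosen. KAR4 rose by 1.01 in kfc1 and 1.23 in wild type, calls that ended without the 12 h groups (0.86 and 0.91 in the same order), in kfc1 with columns centred on their mean (0.80) and in wild type with the start taken at 0 h with no overexpression (0.39). DYN2 fell by 1.12 in kfc1 (-1.37 to -0.94) and missed the rule without the 48 h group (-0.99); in wild type it had -0.51. In all, 3 of 7 members were called higher in kfc1 (20.4% of genes) and 5 of 7 in wild type (15.5%), and 2 of 7, DYN2 and VIR1, lower in kfc1 (13.2%).

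Haploid markers moved with these late values. Of 15 haploid-specific genes, 11 were called higher at 12 to 48 h than at 0 h in both kfc1 (median 1.80) and wild type (median 1.69), beside medians of 0.01 and 0.00 over all genes in that order. Of all genes, 20.4% were called higher in kfc1 and 15.5% in wild type. The alpha-factor gene MF(ALPHA)1 was up by 3.53 in kfc1 and 2.80 in wild type, and STE18, the gamma subunit gene of the mating G protein, by 3.78 and 4.84. Since RME2 belongs to haploid cells and overlaps IME4, their part in the late IME4 values was not tested. With IME1 alone 3 of the 15 were higher over time in kfc1 (median 0.56), where 9.69% of all genes were. In wild type 5 were (median 0.64), where 24% of all genes were. With no overexpression 2 were in kfc1 and 0 in wild type, where 6.87% and 2.37% of all genes were, in that order.

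Adding RIM4 to IME1 was compared at 12 h, the hour both arms share. In wild type PHO92 was 0.94 and SLZ1 0.96 higher with both factors, each just under the rule, and 0 of 7 members were called where 8.98% of genes were higher and 5.97% lower. In kfc1 PHO92 differed by -0.33 and SLZ1 by -0.04. VIR1 was the member called there, at -2.20, where 2.72% of genes were lower.

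The genotypes were compared at 0 h to see how the members started. PHO92 was lower in kfc1 in each arm, by -0.75 with IME1 and RIM4, -1.09 with IME1 and -0.87 with no overexpression, and it met the 2-fold rule with IME1. SLZ1 was lower in kfc1 with IME1 (-1.61) and with no overexpression (-1.05), and its difference with IME1 and RIM4 was 0.87, not called. The IME1 transcript at 0 h had ratios of 1.22 (kfc1) and 0.14 (wild type) in the arm with IME1 and RIM4, and of 0.59 (kfc1) and 1.94 (wild type) in the arm with IME1. In those arms the SLZ1 difference thus ran the same way as that of IME1, whose part in it was not tested. Of the 7 members, 1 was called lower at 0 h with IME1 and RIM4 (2.37% of genes), 3 with IME1 (1.86%) and 2 with no overexpression (1.14%), VIR1 being among them each time. None was called higher with IME1, where 10.7% of genes were, or with no overexpression, where 0.507% were. IME4 also started apart with IME1, at 0.22 (kfc1) and 0.90 (wild type), a difference of -0.68 that was not called.

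After 0 h the mean genotype difference of IME4, MUM2 and SLZ1 stayed under 0.5 in either direction in each arm. For IME4 it averaged -0.32 (-0.52 to -0.19) with IME1 and RIM4, 0.06 with IME1 and 0.05 with no overexpression. For MUM2 it averaged 0.11, -0.05 and -0.14, and for SLZ1 -0.09, -0.33 and -0.46, in the same order of arms. PHO92 averaged 0.60 with no overexpression, where 2 h alone gave 2.17 and the other hours -0.21 to 0.43. At 2 h PHO92 was the 1 member of 7 called higher, where 4.96% of genes were, and VIR1 the 1 called lower, where 4.62% were. At 4 h SLZ1 (-1.16) and VIR1 were the members called lower, where 1.82% were. DYN2 differed by -0.57 at 12 h, -0.26 at 24 h and -1.02 at 48 h with IME1 and RIM4, and by -0.48 to -0.24 at 4 to 12 h with no overexpression. At 48 h, DYN2 and VIR1 were called lower, where 0.567% of genes were. Over all later hours VIR1 was the 1 member called lower in each arm, where 0.922% of genes were with IME1 and RIM4, 0.4% with IME1 and 0.37% with no overexpression. None was called higher, where 1.49%, 0.308% and 1.43% of genes were, in the same order of arms.

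**Figure D3:**
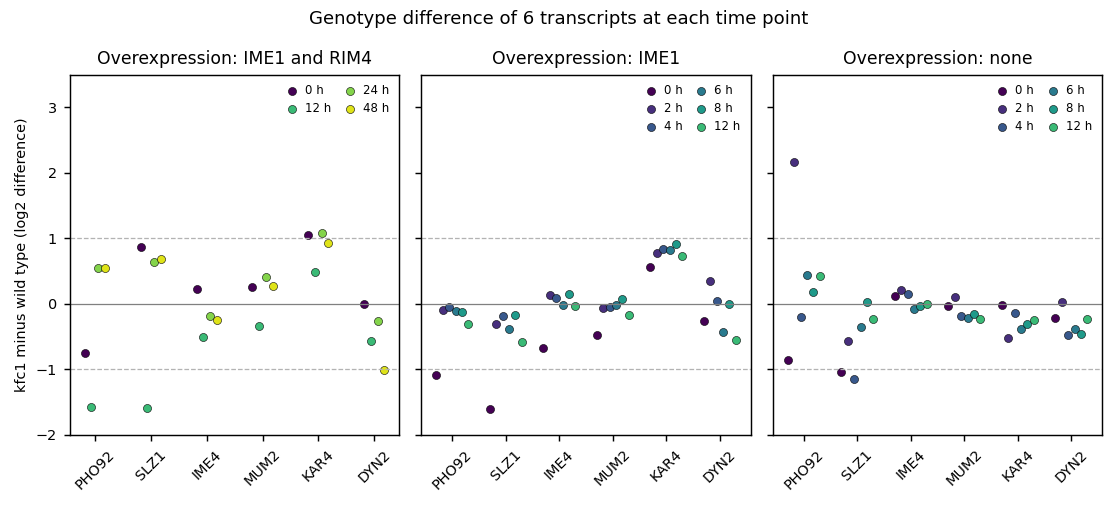
Difference of kfc1 minus wild type in log2 units (vertical axis) for 6 transcripts at each time point, with 1 panel per arm; points are coloured by hour and dashed lines mark 1 and -1. KAR4 points lie between 0.48 and 1.08 in both overexpression arms at 0 h and later and between -0.53 and -0.02 with no overexpression.

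KAR4, the Ime4 relative that serves both methylation and mating, was the member with the largest positive mean difference between the genotypes after 0 h in both overexpression arms, under the 2-fold rule in each. With IME1 it stood at 0.04, 0.31, 0.96, 1.17, 1.27 and 1.58 at 0 to 12 h in kfc1, against -0.52, -0.46, 0.13, 0.36, 0.36 and 0.85 in wild type. The course climbed in both genotypes, with kfc1 above wild type at each of the 6 hours. The mean difference over 2 to 12 h was 0.81 and ranged only from 0.73 to 0.91, and 45 of 6498 genes had a larger mean.

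With IME1 and RIM4, KAR4 stood at 0.21, 1.51, 1.13 and 1.00 at 0 to 48 h in kfc1, against -0.84, 1.03, 0.05 and 0.08 in wild type. At 0 h it was the 1 member of 7 called higher in kfc1, by 1.05, where 0.369% of genes were, and 18 of 6505 genes had a larger difference. Over 12 to 48 h its mean difference was 0.83 (0.48 to 1.08), with 172 of 6509 genes above it, and without the 12 h groups it would have met the rule (1.00). At 24 h alone (1.08) it was the member called higher, where 4.07% of genes were, and VIR1 the member called lower, where 5.45% were.

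With no overexpression the sign was the other way. KAR4 stood at -0.02, -0.46, -0.27, -0.31, -0.13 and -0.21 at 0 to 12 h in kfc1, against 0, 0.07, -0.13, 0.08, 0.18 and 0.05 in wild type, and its mean difference over 2 to 12 h was -0.33 (-0.53 to -0.14). By a rule of 1.5-fold KAR4 was called higher with IME1 and RIM4, where 5.21% of genes were, and with IME1, where 2.03% were, and it was the 1 member of 7 so called in each. By that rule DYN2 (-0.62) and VIR1 were lower with IME1 and RIM4, where 4.1% of genes were, and VIR1 with IME1, where 1.72% were.

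Other values also differed between these strains. Wild type with IME1 and with no overexpression is labelled as re-used, and wild type with IME1 and RIM4 is not. LEU2, a selection marker gene on the same chromosome as KAR4, had no value in kfc1 in any arm, nor in wild type with IME1 and RIM4. It ranged from 6.87 to 7.91 in wild type with IME1 and from 0 to 0.03 in wild type with no overexpression. URA3, another marker gene, ranged from 5.77 to 9.19 in kfc1 with IME1 and RIM4, where wild type had a single value of 1.13. With IME1 it ranged from 4.47 to 8.25 in kfc1 and from 6.90 to 7.94 in wild type. With no overexpression URA3 stayed within -0.06 to 0.02 in kfc1 and 0 to 0.04 in wild type. The part of these markers in the KAR4 difference was not tested.

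Over the later hours the genes beside KAR4 had mean differences below 0 in both overexpression arms, where that of KAR4 was above 0. PEX34, a peroxisome gene that runs away from KAR4 on the other strand, had -0.55 with IME1 and RIM4 and -0.72 with IME1, and SPB1, a ribosome assembly gene downstream, -0.30 and -0.04. The median of 157 chromosome III genes was -0.06 with IME1 and RIM4 and -0.03 with IME1. At 0 h with IME1, SPB1 had the sign of KAR4, with 0.98 beside 0.55 for KAR4, and PEX34 had -1.16. At 0 h with IME1 and RIM4, PEX34 had -0.50 and SPB1 -0.86, beside 1.05 for KAR4. The part of the position in the KAR4 difference was not tested. Over the later hours STE12, whose product acts with Kar4 in mating, was higher in kfc1 with IME1, by 1.07 (0.93 to 1.24). It had 0.81 (0.23 to 1.61) with IME1 and RIM4 and 0.76 (0.54 to 0.93) with no overexpression, where KAR4 had the other sign. With IME1, STE12 was the 1 gene called among 10 mating genes linked to Kar4 and Ste12, whose median difference was 0.29 with IME1 and RIM4 and -0.17 with IME1, beside -0.03 and -0.01 over all genes. By the same rule 0.308% of all genes were higher with IME1.

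**Figure D4:**
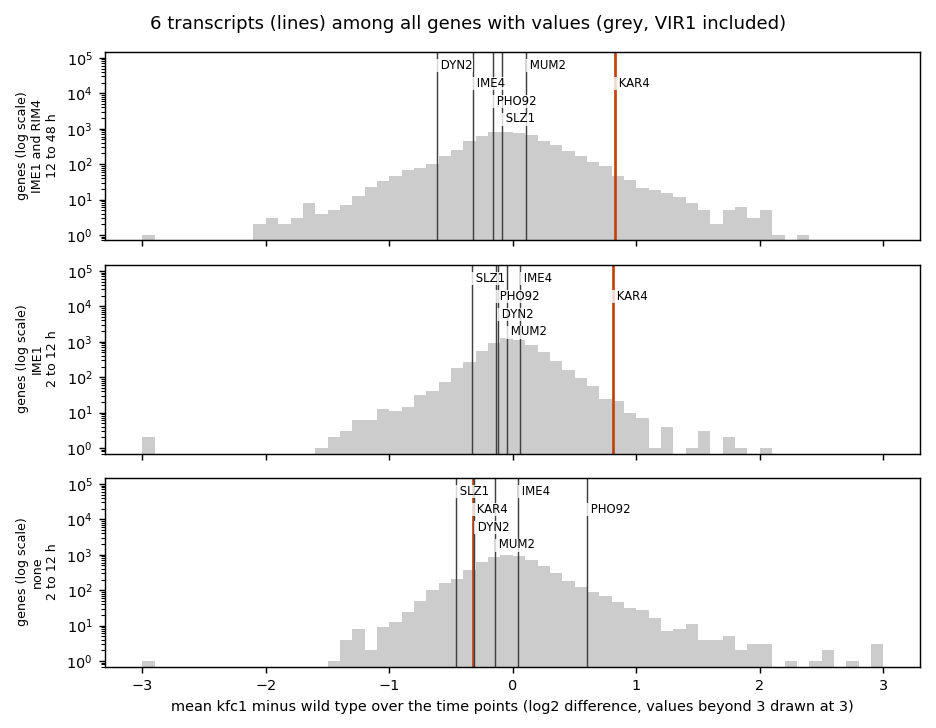
Mean kfc1 minus wild type over the later time points, in log2 units (horizontal axis, values beyond 3 in either direction drawn at 3), as a histogram of all genes with values (vertical axis, number of genes on a log scale), with 1 panel per arm and 6 transcripts drawn as lines. KAR4, the thick line, stands at 0.83 (IME1 and RIM4) and 0.81 (IME1), to the right of most genes, and at -0.33 (no overexpression).

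VIR1 itself checks the genotype, except in the 5 kfc1 columns with no overexpression at 2 to 12 h. Those columns were re-referenced because of their VIR1 values and include its kfc1 0 h value of -5.73. They and the VIR1 calls drawn from them are therefore no check. The kfc1 ratios of VIR1 ran from -9.41 to -7.32 (IME1 and RIM4), from -7.70 to -6.32 (IME1) and from -5.74 to -4.70 (no overexpression), and the wild-type ratios ran from -0.07 to 2.07 over the 16 wild-type conditions. The reads behind its kfc1 ratios are unknown, so differences between its kfc1 columns are given without any measure of their precision. In wild type VIR1 stood at 0, 0.52, 0.54, 0.33, 0.82 and 0.81 at 0 to 12 h with no overexpression and at 0.58, 0.81, 0.94, 0.92, 1.15 and 1.67 with IME1. With IME1 and RIM4 it stood at -0.07, 2.07, 1.04 and 1.74 at 0 to 48 h, a mean rise of 1.69 (1.11 to 2.14). Wild-type VIR1 was thus highest at 12 h in the arm with IME1 and again with IME1 and RIM4, as PHO92, SLZ1, IME4, MUM2 and KAR4 were. In the arm with IME1, 12 h was the last hour collected.

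Across the 16 wild-type conditions the members differed widely in how far they moved. The SD over conditions was 2.45 for PHO92, with 53 of 6497 genes above it, and 1.91 for SLZ1, with 108 above it. It was 0.67 for IME4, 0.59 for VIR1, 0.51 for MUM2, 0.46 for KAR4 and 0.35 for DYN2, against a median of 0.44 over all genes.

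The profiles were most alike between SLZ1 and PHO92 (Pearson r = 0.93) and between IME4 and MUM2 (r = 0.90), each over 16 wild-type conditions, which share their reference, their strains and neighbouring time points, so that r is a description. DYN2 ran against each of the others, from r = -0.70 with IME4 to r = -0.28 with KAR4. Over all 32 conditions the gene most like PHO92 was SAE3, a meiotic recombination gene (r = 0.98), and those most like SLZ1 were YGL081W, RIM4 and the meiotic kinase gene MEK1 (r = 0.97 for each). RIM4 was itself overexpressed in the arm with IME1 and RIM4, so part of its profile was set by the design. The profile of MUM2 was most like those of YGL239C (r = 0.98), NUS1 and HMG2 (r = 0.97 for each), and that of IME4 most like HMG2, GAL10 (r = 0.96 for each) and MSH5 (r = 0.95). KAR4 had no match as close, with LPP1 the nearest at r = 0.88. DYN2 was most like COX20 and MRPS12 (r = 0.91 for each), a mitochondrial assembly factor gene and a mitochondrial ribosomal protein gene. VIR1, over the 16 wild-type conditions, was most like GUP2, SPO1 and LIN1 (r = 0.95 for each). These were picked from 2559 genes, or 2638 for wild type alone, with a value in every column and an SD of at least 0.5.

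Lists of genes that work beside these proteins were counted by the same rule. With IME1 and RIM4, 2 of 12 dynein and dynactin genes were higher at 12 to 48 h than at 0 h in kfc1 and 1 in wild type. Of all genes, 20.4% were higher there in kfc1 and 15.5% in wild type. PAC11, the dynein intermediate chain gene and partner of Dyn2, rose in both, by 3.09 in kfc1 and 2.68 in wild type, while DYN2 fell in kfc1. PAC11 was also higher with IME1 than without it, by 1.17 in kfc1 and 1.09 in wild type. Of 9 genes of the CCR4-NOT deadenylase, which shortens poly(A) tails, 0 were called in that interval in either genotype, with medians of -0.44 in kfc1 and 0.02 in wild type. Neither list had a gene called between the genotypes at the later hours of any arm. Of 10 meiotic entry regulators 0 were called between the genotypes at the later hours either. Of all genes, 1.49% were higher and 0.922% lower in kfc1 with IME1 and RIM4. The shares were 0.308% and 0.4% with IME1 and 1.43% and 0.37% with no overexpression. At such shares, lists this small can hold 0 calls whatever their function. With IME1 and RIM4, however, the NDT80 difference changed sign between hours, which the rule does not call. NDT80 stood at 1.26, 4.07 and 2.71 at 12, 24 and 48 h in kfc1, against 4.61, 3.63 and 1.48 in wild type. Over time in that arm 6 of the 10 regulators were higher at 12 to 48 h in both genotypes, with medians of 1.26 in kfc1 and 1.28 in wild type. The 10 include IME1 and RIM4, the genes overexpressed in this arm, so the count is partly set by the design. RIM4 was up by 4.27 in kfc1 and 4.22 in wild type.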

How the data were processed

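Polyadenylated RNA of 64 samples was sequenced by the authors, and the deposited table holds 1 log2 ratio per gene for each of 32 conditions, with the 2 replicates combined. The logarithm was taken as base 2, which no source used here states. BWA, DESeq2 and sacCer3 are named, without roles, in the submitters' processing notes; how reads were counted, whether by strand, with which annotation and with what shrinkage is not stated in them. Since the log2 ratios carry no counts, the depth per sample and its precision are unknown.

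In 27 columns the deposited ratio is to wild type with no overexpression at 0 h, whose own column is 0 throughout. The 5 kfc1 columns with no overexpression at 2 to 12 h were read as ratios to kfc1 at 0 h, since VIR1 is at 1.01, 1.03, 0.58, 0.38 and -0.0036 there and below -5 in the other kfc1 columns, and the kfc1 0 h column was added to them. Shrinkage that differed between columns would leave such sums inexact. A blank stayed blank, and the 7 members had a value in all 32 conditions.

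Differences and calls were computed for all genes (Python 3.11.15, pandas 2.3.3, numpy 2.4.6) and the call rule was tested on simulated data. The members and gene lists were chosen with earlier results of these data known. The genes named are the 7 members, the 3 genes of most similar profile, up to 2 genes of largest difference per list, and IME1; LEU2, URA3, PEX34 and SPB1, and the step from 12 to 24 h, were added with their values in view. Symbols, coordinates and sequences come from RefSeq R64; 5986 identifiers matched and 674 did not. The protein features planned were not analysed here.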

Additional observations from a re-analysis of the deposited data

Results flagged for a closer look

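The genotype difference of KAR4 was positive at each later hour with overexpression and negative at each later hour with no overexpression. It was already 1.05 at 0 h with IME1 and RIM4 and 0.55 with IME1, beside -0.02 with no overexpression. The mean difference with IME1 and RIM4 exceeded that with no overexpression by 1.15, and the mean with IME1 exceeded it by 1.14. These gaps were not tested, since the table has no replicates. From 0 h of the same strain KAR4 rose by 1.01 in kfc1 and 1.23 in wild type with IME1 and RIM4. With IME1 it rose by 1.02 and 0.77 in the same order.

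With overexpression VIR1, which the mutant lacks, had opposite signs in the genotypes, and these gaps were not tested. The reads behind its kfc1 values are unknown. The gap of kfc1 minus wild type was -3.70 in the course with IME1 and RIM4, -1.59 in the course with IME1 and -2.75 in the response to IME1. With no overexpression its course had the same sign in both, 0.60 in kfc1 and 0.61 in wild type.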

How the results depend on the processing

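No paired analysis was possible because the table holds 1 combined value per condition; for the same reason no replicate could be left out. All 1099 member values recomputed under an alternative kept the direction of any call. Of these, 12 lost a call, 38 gained one (most by the size of 1.5-fold) and 1049 did not change side.

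Column means ran from -0.160 to 0.176 and column medians from -0.031 to 0.012. Centring on either, RefSeq genes only, and leaving out 139 genes that share an exact value each kept the number of called genes of every comparison within 1.5 times; so did dropping the same-sign rule.

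With the size of 1.5-fold in place of 2-fold, more genes were called by construction. kfc1 against wild type then gave 989 at 0 h and 606 later with IME1 and RIM4, 2004 and 244 with IME1, and 474 and 504 with no overexpression. The courses over time gave 1872 in kfc1 and 705 in wild type with no overexpression, 2257 and 3730 with IME1, and 3615 and 3025 with IME1 and RIM4. IME1 against none gave 1073 in kfc1 and 1617 in wild type, RIM4 added at 12 h 971 and 2078, and 24 against 12 h 2195 and 2652.

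With the 5 kfc1 columns as deposited, 249 genes were called for kfc1 against wild type with no overexpression, 1257 for the kfc1 course and 837 for IME1 against none in kfc1, and the VIR1 genotype difference was -0.01. PHO92 was then called higher in kfc1 (1.46) and lost its call for IME1 against none in kfc1 (1.28). With the start at 0 h with no overexpression, the wild-type IME1 course had 1002 genes called. From its own 0 h it had 1560 higher and 819 lower. The cause was not tested.

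Leaving out each time point gave 91 to 177 (no overexpression), 31 to 71 (IME1) and 163 to 337 (IME1 and RIM4) for kfc1 against wild type. It gave 645 to 788 in kfc1 and 201 to 285 in wild type for the course with no overexpression, 916 to 1079 and 2326 to 2419 with IME1, 2162 to 2336 and 1685 to 1903 with IME1 and RIM4, and 430 to 566 and 594 to 761 for IME1 against none. No member lost or gained a call between the genotypes in these, except KAR4 without 12 h with IME1 and RIM4. VIR1 in the kfc1 course with IME1 missed the rule without 8 h (-0.99).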

Other observations

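With IME1 and RIM4 overexpressed, most of the mating genes on the list were called over time. Of the 10 mating genes served by Kar4 and Ste12, 7 were called higher at 12 to 48 h than at 0 h in kfc1 (median 1.97) and 6 in wild type (median 1.80). Of all genes, 20.4% were in kfc1 and 15.5% in wild type. FIG1, a mating gene, was up by 4.34 (3.62 to 5.22) in kfc1 and 3.31 (2.02 to 4.38) in wild type. Between 12 and 24 h the list had a median of 1.03 in kfc1, with 5 of 10 higher, and of -0.28 in wild type, with 1 of 10, STE12, higher (2.29). Of all genes, 10.5% were higher over that interval in kfc1 and 9.8% in wild type. The KAR4 ratio was 1.51 at 12 h and 1.13 at 24 h in kfc1, against 1.03 and 0.05 in wild type, lower at 24 h in both.

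RME1, the repressor gene of IME1 that counts among the haploid markers, had a mean difference of 0.90 (0.58 to 1.55) between kfc1 and wild type over 2 to 12 h with IME1, positive at each hour and under the rule.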
